A study of Mus musculus with 5 samples.

Results

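Interleukins and their receptors were measured in lymphatic endothelial cells (LECs) of mouse lymph nodes after loss of RANKL from the surrounding stroma. The set comprised all protein-coding genes whose symbol starts with Il and a digit, apart from Il34 and Il11ra1. It held 68 of the 27843 genes in the count table, and 49 of the 68 passed the filter on low counts. The KO group had 2 libraries from mice of genotype Ccl19 Cre Rankl flox/flox, in which Cre expressed from Ccl19 deletes the RANKL gene in fibroblastic stromal cells of the node. The WT group had 3 libraries from littermates that carried the same floxed Rankl alleles without Cre. All mice were 8 weeks old and on a C57BL/6 background, and the sort kept CD31 and podoplanin positive cells that lacked CD45 and TER119. The deletion is directed at the fibroblastic stroma and not at the sequenced cells, and whether it also reached the sequenced cells was not tested. The number of animals behind a library is not given in the labels, so p-values measure only the spread between these libraries.

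Interleukins are secreted messengers between cells of the immune system and its supporting tissue, and each acts through receptor chains that are often shared between several ligands. The common gamma chain (Il2rg), gp130 (Il6st) and the IL-1 receptor accessory chain (Il1rap) are such shared subunits. Lymph node stroma, LECs included, is known as a source of IL-7, which keeps naive T cells alive, and of IL-33, an alarm signal stored in the nucleus. RANK, the receptor of RANKL, signals in LECs through TRAF adaptors and NF-kB, a pathway that the IL-1 receptors use as well.

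Library totals were 53301671 and 59725200 reads in KO and 52839375 to 70171307 reads in WT, and 1 CPM, the unit of the levels below, equalled 52 to 71 reads depending on the library. The labelled cell type was checked against LEC markers: all 8, Prox1, Pdpn, Lyve1 and Flt4 among them, were read in every library, with summed levels of 11600 and 9750 CPM in KO and 9190 to 10300 CPM in WT. Single markers moved in both directions: Prox1 was lower in KO (-0.75 ± 0.11, log2 fold change with SE), Mmrn1 (1.56 ± 0.25) and Ccl21a (3.79 ± 0.57) were higher, and all 3 lost their call without WT replicate 2 or 3 (Ccl21a also without WT replicate 1). Lyve1 lay lower in both KO libraries without passing (-0.57 ± 0.18). Of 9 blood endothelial markers, 7 were higher in KO and 0 lower, beside 3.25% and 3.99% of all genes. All 7 lost their call without WT replicate 3. The 9 markers summed to 3180 and 4090 CPM in KO and 2770 to 3080 CPM in WT. Most of that sum came from Plvap (2790 and 3630 CPM in KO, 2460 to 2810 CPM in WT), which was not called (0.25 ± 0.15). The part of blood endothelial cells in the values below was not tested. Of all 15874 genes tested, 516 were higher and 634 lower in KO at an adjusted p under 0.05 in the quasi-likelihood F test of edgeR (Benjamini-Hochberg), which is 7.24% of them. This test gives every adjusted p below unless another tool is named. A fit that corrects for GC content and exon length gave 408 higher (2.57%) and 330 lower (2.08%). Levels of transcripts in sorted pools do not tell fewer cells of a kind from less RNA per cell.

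The LECs read a small number of interleukin genes at a high level. Per kilobase of exon, Il33 stood highest, followed by Il2rg and Il6st, and then by Il27ra (the IL-27 receptor chain), Il4i1, Il13ra1 and Il4ra. The mean level over the 5 libraries was 702 CPM per kilobase for Il33 (lowest library 443, highest 833), 476 for Il2rg (386 to 528) and 192 for Il6st (155 to 223). The library ranges of Il33 and Il2rg overlapped, while all Il6st values lay below all Il2rg values. The next 4 genes had means of 74.5 to 93.8 CPM per kilobase with overlapping ranges, and all of them lay below Il6st. The IL-17 receptor chains Il17rc (31.6 CPM per kilobase) and Il17ra (22.1) and the shared IL-10 receptor chain Il10rb (14.6) completed the 10 highest, each with all libraries below the gene above it. The 10 highest were thus 8 receptor chains, 1 ligand (Il33) and 1 enzyme (Il4i1).

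Ligands other than IL-33 were read at far lower levels per length. Il7 followed at 7.41 CPM per kilobase, Il6 at 5.16, Il23a, a subunit of IL-23, at 3.50 and Il1a at 2.37, and Il15, Il11, Il12a and Il1b lay between 0.714 and 1.02. The other subunit of IL-23, Il12b, had 0 reads in both KO libraries and at most 3 in a WT library. Of the 68 genes, 33 had a mean level of at least 1 CPM over the 5 libraries, 20 at least 10 CPM and 8 at least 100 CPM. The 3 most read genes, Il6st, Il33 and Il2rg, took 70.3% to 73.2% of the reads of the set in each library. Among the 19 genes under the filter, the highest value was 16 reads in a library, and Il31 had 0 reads in every library. These 19 included the T helper cytokine genes Il4, Il5, Il17f, Il21 and Il22 and the regulatory cytokine gene Il10. The 19 were left out of the test, and at this depth a difference in them could be missed.

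**Figure D1:**
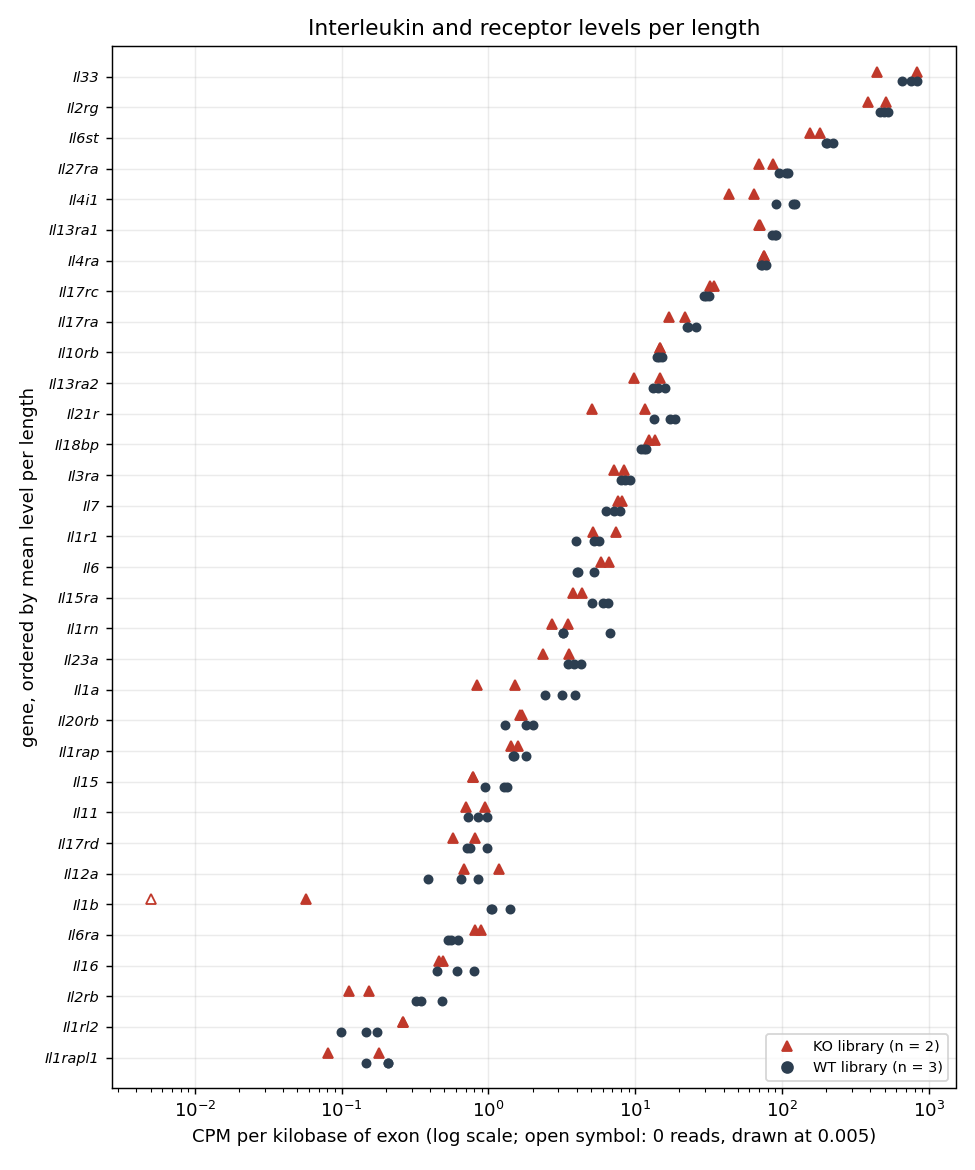
CPM per kilobase of exon (horizontal log axis) of the 33 genes with a mean of at least 1 CPM, ordered by level (vertical axis), with triangles for the 2 KO libraries and circles for the 3 WT libraries; the open symbol marks 0 reads. Il33, Il2rg and Il6st lie at the top, and Il1b is the gene whose KO libraries (0 reads, and 0.11 CPM before scaling to length) lie farthest below its WT libraries.

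The summed level of the set was 5919 and 7309 CPM in the 2 KO libraries, against 7929, 7607 and 8257 CPM in the 3 WT libraries, so both KO values lay below all WT values. At the level of single genes, 4 of 49 were lower in KO and 0 were higher at an adjusted p under 0.05, which is 8.16% of the set beside 7.24% of all genes, or 3.99% for lower genes alone. The share called in either direction is thus near that of all genes. The KO and WT values did not overlap for 22 of the 49, or 44.9%, beside 45.4% of all genes tested; KO was lower for 16 of these and higher for 6, while all genes divided into 22.5% lower and 22.8% higher. The median log2 fold change, KO minus WT, was -0.24 over the 49, beside 0.00 over all genes tested. With DESeq2, 11 of the 41 with an adjusted p passed, beside 18.5% of all genes. Without the filter 7 of 67 passed, beside 5.91% of all genes. With the correction for GC content and exon length 4 of 49 passed, beside 4.65%. At an adjusted p under 0.1 by edgeR there were 11 of 49, beside 16.0%. At an unadjusted p under 0.05 there were 16 of 49, or 32.7%, beside 26.4% of all genes. The 4 lower genes were the inflammatory cytokine genes Il1a and Il1b, the IL-7 receptor gene Il7r and Il4i1, which encodes a secreted amino acid oxidase first found as an IL-4 induced gene.

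**Figure D2:**
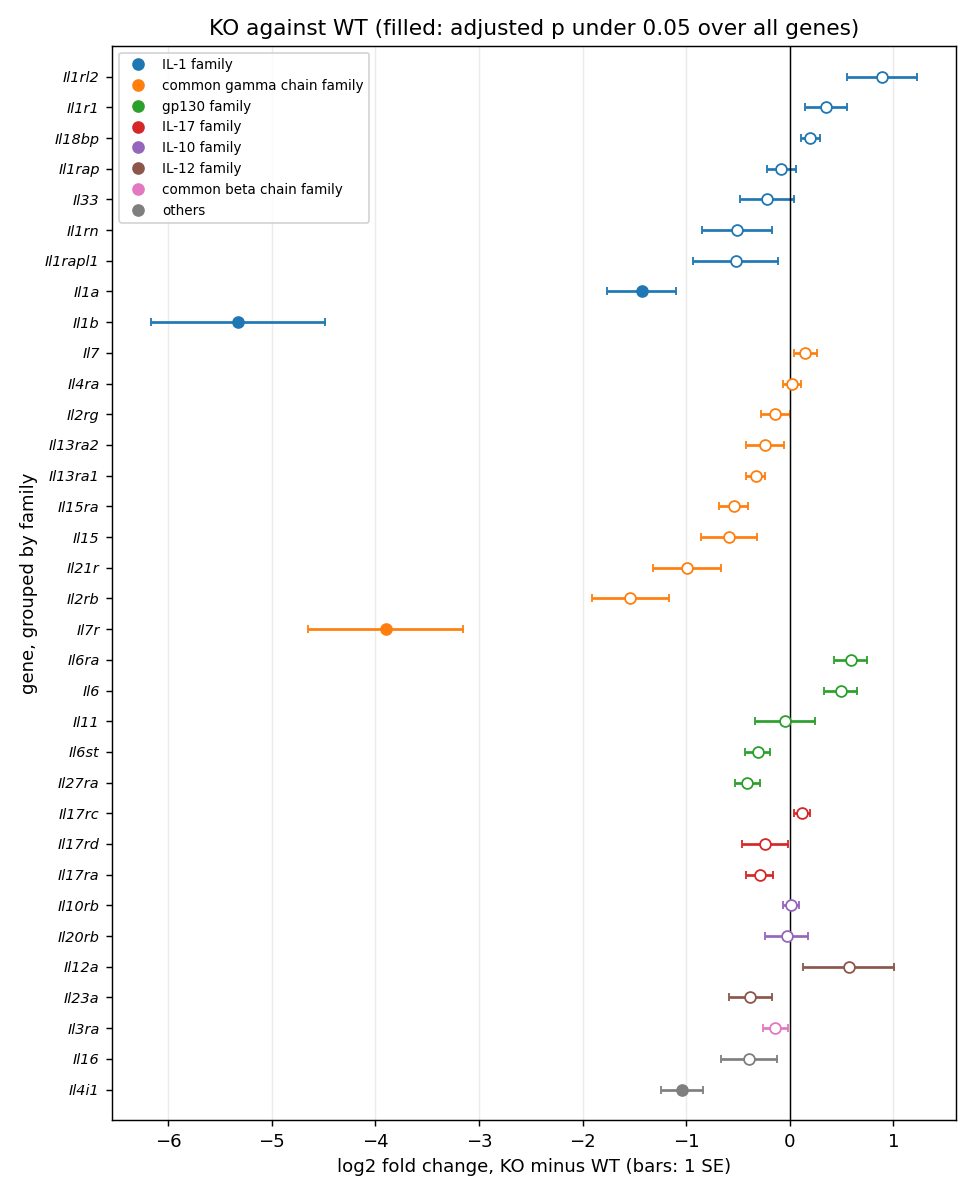
Log2 fold change, KO minus WT (horizontal axis, bars of 1 SE), of the 33 genes with a mean of at least 1 CPM and of Il7r, grouped by family. Filled points are the 4 genes past an adjusted p of 0.05 over all genes, Il1b (-5.33), Il7r (-3.90), Il1a (-1.43) and Il4i1 (-1.04), and of the open points Il2rb (-1.54) alone lies more than 1 log2 unit from 0.

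IL-1 alpha and IL-1 beta act on the same receptor, and their genes lie near each other on the same strand of chromosome 2. Il1a lies at chromosome 2, 129299610 to 129309972 (ENSMUSG00000027399, minus strand, mm10), and Il1b at 129364570 to 129371139 (ENSMUSG00000027398, minus strand). Each is shown with the 250 bases before its RefSeq start (GRCm38.p6, the same assembly as mm10). Such windows were sought for the 4 called genes and kept where they lay outside the annotated gene, which left Il1a and Il1b. Capitals mark matches to TATAAA, the TATA box, and to TGANTCA, the AP-1 motif, searched on both strands.
Il1a, chr2:129309973-129310222, minus strand: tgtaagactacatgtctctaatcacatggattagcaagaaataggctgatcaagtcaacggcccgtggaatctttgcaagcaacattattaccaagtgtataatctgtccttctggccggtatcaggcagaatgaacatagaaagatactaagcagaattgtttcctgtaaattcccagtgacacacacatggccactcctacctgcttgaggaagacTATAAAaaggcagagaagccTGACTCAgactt
Il1b, chr2:129371140-129371389, minus strand: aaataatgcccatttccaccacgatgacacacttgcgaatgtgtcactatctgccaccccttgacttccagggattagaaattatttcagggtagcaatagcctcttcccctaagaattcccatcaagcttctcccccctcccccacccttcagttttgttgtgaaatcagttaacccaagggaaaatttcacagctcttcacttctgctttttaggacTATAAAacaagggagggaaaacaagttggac
Both windows held TATAAA, at -32 to -27 from the start in Il1a and at -31 to -26 in Il1b. TATAAA was found in 12.4% of the 32851 promoter windows of this length, and TGANTCA, at -12 to -6 in Il1a, in 6.75%. A match to a loose NF-kB motif (GGG and CC around any 5 bases, in 45.8% of windows) or to TTCNNNGAA (a STAT motif, in 7.02%) was present in neither, and the motif matches overlapped in neither.

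Il1b was nearly absent from the KO libraries. It had 6 and 0 reads in KO libraries 1 and 2, against 141, 168 and 105 reads in WT libraries 1, 2 and 3. Each WT library thus lay far above both KO libraries. The level averaged 0.0548 ± 0.0775 CPM in KO (SD, n = 2) and 2.23 ± 0.398 CPM in WT (SD, n = 3), which gave -5.33 ± 0.84 as the log2 fold change (SE, edgeR, Benjamini-Hochberg adjusted p = 0.021). From the 6 reads over KO, the level was 42.0-fold lower than in WT, with an exact 95% interval of 19.1 to 115 that covers counting error only. The log2 fold change was -10.09 without KO replicate 1, where the lone KO library has 0 reads, and -4.33 without KO replicate 2. A fit without a KO replicate holds 1 KO library, so its calls, given below for other genes, cover no spread between KO libraries. Il1b did not pass without WT replicate 1, 2 or 3, at -5.40, -5.17 and -5.39.

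Il1a was read at 1.66 and 2.97 CPM in KO, against 7.69, 6.26 and 4.75 CPM in WT. The groups did not overlap, and the KO library with the higher value stood at 173 reads. The mean was 2.32 ± 0.928 CPM in KO (SD, n = 2) and 6.24 ± 1.47 CPM in WT (SD, n = 3), which gave -1.43 ± 0.33 as the log2 fold change (SE, edgeR, Benjamini-Hochberg adjusted p = 0.049). Exons of the antisense gene Gm14023 cover 11.2% of its exon bases, and that gene had at most 7 reads in a library. This value of Il1a lay at the threshold, and it passed at -1.91 without KO replicate 2. It did not pass at -1.08 without KO replicate 1 or at -1.25, -1.42 and -1.59 without WT replicates 1, 2 and 3.

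Both cytokines are best known from myeloid cells, so the marker list of macrophages and monocytes is given beside them. Its summed level was 399 and 529 CPM in KO and 297 to 549 CPM in WT, most of it from Cd14. Of its 8 markers, Csf1r (20 and 8 reads in KO, against 123, 69 and 87 in WT) and Mpeg1 (34 and 30 reads in KO, against 166, 229 and 115 in WT) were lower. Adgre1, with 15 and 20 reads in KO and 0 in every WT library, was higher. These 2 lower and 1 higher markers stood beside 3.99% lower and 3.25% higher among all genes. The calls of all 3 were lost without each WT library, and that of Adgre1 also without each KO library. Ptprc (CD45) averaged 2.64 CPM in KO and 2.46 CPM in WT. The granulocyte and mast cell list summed to 1.74 and 0.430 CPM in KO and 0.529 to 1.76 CPM in WT. The part of these cells in the values of Il1a and Il1b was not tested.

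Other genes of the IL-1 family did not pass the test. Il1rn, which encodes the natural antagonist of both ligands, stood at 19.3 and 15.1 CPM in KO and at 37.4, 17.9 and 17.9 CPM in WT, so that the difference in mean rested on WT replicate 1 (log2 fold change -0.51 ± 0.34, SE, and -0.06 without that library). The signalling receptor Il1r1 had 32.7 and 47.3 CPM in KO, against 33.4, 25.2 and 35.9 CPM in WT (0.35 ± 0.20), and the accessory chain Il1rap 18.1 and 16.1 CPM in KO, against 16.8, 20.6 and 17.0 CPM in WT (-0.08 ± 0.14). Both ligands of the IL-1 receptor were thus lower in KO without a called change in either chain of it. Il18bp, the soluble inhibitor of IL-18, ranged from 38.0 to 41.4 CPM in KO and from 33.4 to 35.7 CPM in WT (0.20 ± 0.09). Il1rl2, the receptor chain for IL-36, had 1.77 CPM in both KO libraries and 1.18, 0.993 and 0.674 CPM in WT (0.89 ± 0.34), and the groups did not overlap for either of these genes. Il1rapl1, a relative of the accessory chain, had a log2 fold change of -0.52 ± 0.41.

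Il33 was the most abundant ligand and the one on which the 2 KO libraries disagreed most in absolute level. It stood at 1280 and 2400 CPM in KO libraries 1 and 2, against 2180, 1890 and 2380 CPM in WT. KO library 1 lay below every WT library and KO library 2 above every one, and the log2 fold change was -0.22 ± 0.26 (SE). It was -0.75 without KO replicate 2 (edgeR, Benjamini-Hochberg adjusted p = 0.032) and 0.16 without KO replicate 1. The receptor of IL-33, Il1rl1 (ST2), was singled out as the partner of Il33. In the same libraries it had 29 and 5 reads in KO and 34, 31 and 13 reads in WT. Its co-receptor is Il1rap, described above. Fibroblastic reticular cells are the other stromal source of IL-7 and IL-33 in the node. Their 9 markers summed to 1060 and 466 CPM in KO and 322 to 472 CPM in WT. Of these markers, 0 were called and 1 had an unadjusted p under 0.05, beside 7.24% and 26.4% of all genes. KO library 1 was highest in this sum and lowest in Il33, and Dcn held 692 of the 1060 CPM. Pdgfra, Pdgfrb, Col1a1, Col1a2, Col3a1 and Dcn were highest in KO library 1, and Ccl19, Cxcl13 and Lum were not. The part of these cells in the Il33 and Il7 values was not tested.

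**Figure D3:**
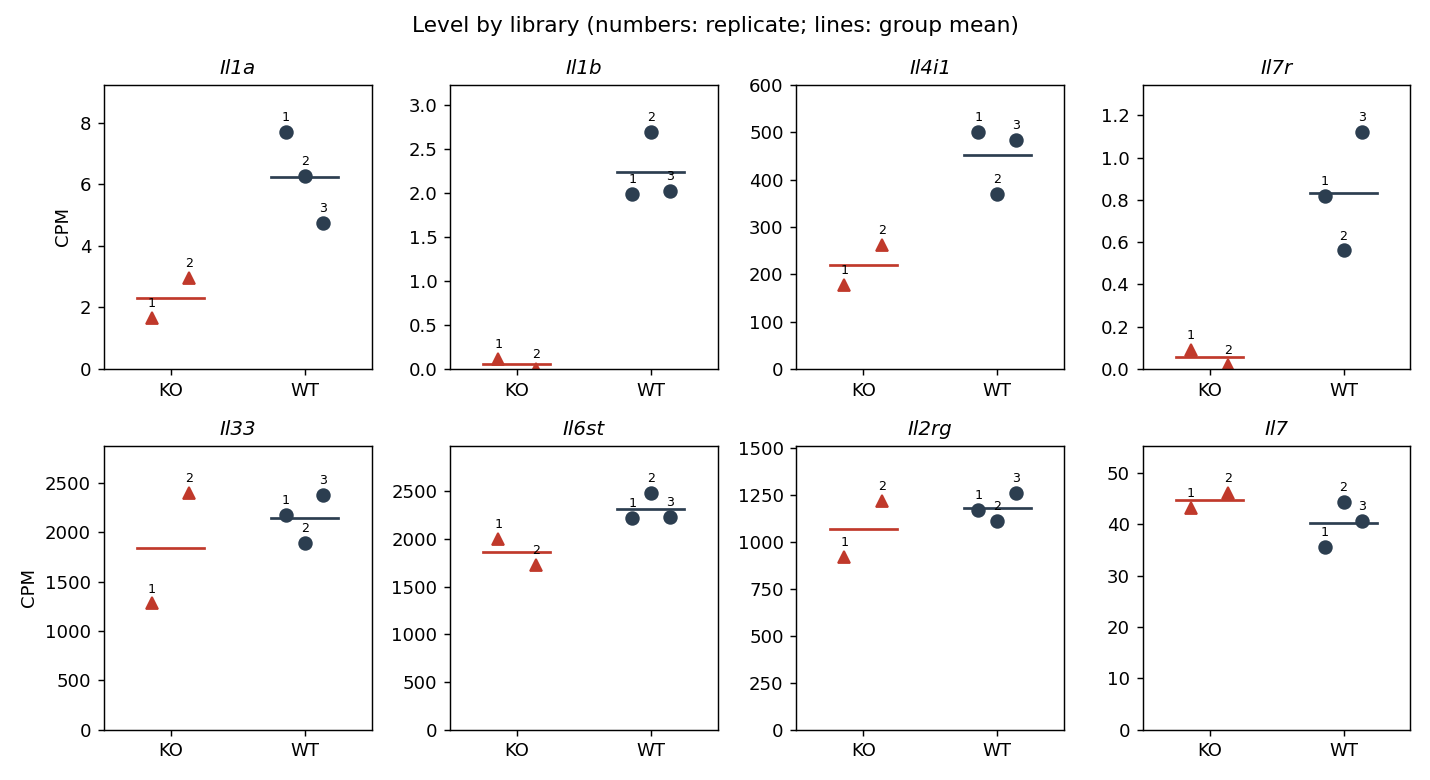
CPM (vertical axes, linear from 0, a scale for each gene) of the 4 genes that were lower in KO (upper row) and of 4 abundant or stromal genes that did not pass the test (lower row), with 1 point per library, the replicate number above it and a line at each group mean. Upper-row KO points lie below every WT point, while Il33, Il2rg and Il7 overlap between the groups and Il33 differs between the KO libraries (1280 and 2400 CPM).

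Among receptors that use the common gamma chain, Il7r, the IL-7 receptor alpha chain, fell to near the detection limit. Il7r (ENSMUSG00000003882, chromosome 15, 9505788 to 9530176, mm10) had 5 and 1 reads in KO, against 58, 35 and 58 reads in WT. Both KO counts lay far below the lowest WT count. The level averaged 0.0543 ± 0.0524 CPM in KO (SD, n = 2) and 0.831 ± 0.278 CPM in WT (SD, n = 3), which gave -3.90 ± 0.75 as the log2 fold change (SE, edgeR, Benjamini-Hochberg adjusted p = 0.032). From the 6 reads over KO, the level was 15.3-fold lower than in WT (exact 95% interval 6.88 to 42.4, counting error only). It passed at -5.44 and -3.16 without KO replicates 1 and 2, and did not at -3.91, -4.12 and -3.64 without WT replicates 1, 2 and 3.

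Lymphocyte markers are given beside Il7r, which T cells and innate lymphoid cells are known to carry. Of the 11 T and NK cell markers, 10 were tested. Of these 10, 0 were called and 2 had an unadjusted p under 0.05, beside 7.24% and 26.4% of all genes. The 11 summed to 48.9 and 52.5 CPM in KO and 50.8 to 57.2 CPM in WT, most of it from Cd247 and Lck. The other markers were low and did not move together. Cd3d, Cd3g, Trbc2 and Cd8a lay above every WT library in KO library 2 (39, 67, 75 and 37 reads) and below every WT library in KO library 1 (10, 4, 1 and 2 reads). Cd4, at 6 and 13 reads in KO, against 40, 36 and 24 reads in WT (-1.67 ± 0.54, SE), and Cd247 (-0.28 ± 0.10) lay below every WT library in both. Of 5 innate lymphoid markers (4 tested), Kit was lower (-0.88 ± 0.15, SE) and 0 were higher, beside 3.99% and 3.25% of all genes. The call of Kit was lost without WT replicate 2 or 3. Ncr1 had 0 reads in both KO libraries and 5 over the WT group. The part of lymphocytes in the Il7r value was not tested.

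IL-7 itself did not pass the test. Il7 was read at 43.2 and 46.1 CPM in KO, against 35.6, 44.4 and 40.6 CPM in WT (log2 fold change 0.15 ± 0.11, SE, and 0.07 to 0.23 with any library left out). The 2 KO values lay within or just above the WT range. Gm16685, an annotated antisense gene that shares 1.9% of the exon bases of Il7 and was singled out after its values were seen, was lower, at 115 and 139 reads in KO, against 516, 292 and 315 reads in WT (-1.42 ± 0.25, SE), and its call was lost without each WT library (-1.57 to -1.26 over the fits that leave out a library). The kits used do not mark strand, so reads in the shared bases cannot be assigned to either gene.

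The ligand-binding chains that join the common gamma chain for IL-15 did not pass the test, nor did IL-15 itself. Il2rb, the beta chain of the IL-2 and IL-15 receptors, stood at 0.657 and 0.481 CPM in KO, against 2.08, 1.49 and 1.39 CPM in WT. Il15ra, which holds IL-15 on the cell surface for presentation to T and NK cells, stood at 16.8 and 19.2 CPM in KO, against 26.8, 22.6 and 29.0 CPM in WT. For both genes, and for the ligand Il15 at 1.77 CPM in each KO library and 2.87, 2.13 and 3.02 CPM in WT, every KO value lay below every WT value. The log2 fold changes were -1.54 ± 0.37 for Il2rb, -0.54 ± 0.14 for Il15ra and -0.59 ± 0.27 for Il15 (SE, edgeR, Benjamini-Hochberg adjusted p = 0.055, 0.065 and 0.21 in that order). Il2rb and Il15ra passed with DESeq2 (adjusted p = 0.004 and 0.01).

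Il2rg, the common gamma chain itself, was read at 921 and 1220 CPM in KO, against 1170, 1110 and 1260 CPM in WT (-0.14 ± 0.14, SE), and the groups overlapped. Exons of Gm20489 cover 30.5% of its exon bases, and that gene had 0 reads in every library. Il4ra, the chain that binds IL-4, was the steadiest of the abundant receptors, at 452 and 449 CPM in KO, against 438, 430 and 466 CPM in WT (0.02 ± 0.09). Il13ra1, its partner in the receptor for IL-4 and IL-13, lay lower in both KO libraries, at 259 and 263 CPM, against 330, 339 and 317 CPM in WT (-0.33 ± 0.09, edgeR, Benjamini-Hochberg adjusted p = 0.064, and 0.0037 with DESeq2). Il13ra2, which binds IL-13 and is known as a decoy, had 22.4 and 33.5 CPM in KO, against 32.6, 30.3 and 36.4 CPM in WT, with a log2 fold change of -0.24 ± 0.18, and of -0.57 without KO replicate 2 (edgeR, Benjamini-Hochberg adjusted p = 0.05 after rounding, past the threshold). The IL-21 receptor gene Il21r had 16.8 and 38.4 CPM in KO, against 62.0, 44.7 and 57.5 CPM in WT. Its groups did not overlap, but the KO libraries lay apart, and the log2 fold change of -0.99 ± 0.33 was -0.52 without KO replicate 1 and -1.71 without KO replicate 2, where it passed (same test, adjusted p = 0.0074).

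Il4i1 (ENSMUSG00000074141, chromosome 7, 44816387 to 44840809, mm10) was the one called gene of the set with a mean of at least 100 CPM. Il6st, Il27ra, Il13ra1 and Il17ra, also above that level, had both KO libraries below every WT library without a call by edgeR. Il4i1 was read at 178 and 262 CPM in KO, against 500, 370 and 484 CPM in WT. The groups did not overlap. The mean was 220 ± 59.9 CPM in KO (SD, n = 2) and 451 ± 70.6 CPM in WT (SD, n = 3), which gave -1.04 ± 0.20 as the log2 fold change (SE, edgeR, Benjamini-Hochberg adjusted p = 0.034). With the correction for GC content and exon length the change was the same size, and the adjusted p was 0.058. It passed at -0.79 and -1.35 without KO replicates 1 and 2, and did not at -0.96, -1.16 and -0.99 without WT replicates 1, 2 and 3. Dendritic and B cells are also known to express Il4i1. The 6 dendritic cell markers summed to 262 and 301 CPM in KO and 276 to 345 CPM in WT, nearly all of it from Zbtb46 (260 and 301 CPM in KO, 274 to 343 CPM in WT). Cd209a had 0 reads in KO and 8, 11 and 16 reads in WT. The 5 B cell markers summed to 22.9 and 29.6 CPM in KO and 9.98 to 18.2 CPM in WT. In each of these 2 lists 0 were called and 1 had an unadjusted p under 0.05, beside 7.24% and 26.4% of all genes. The part of dendritic and B cells in the Il4i1 value was not tested. The annotation places 86.3% of its exon bases inside exons of Atf5, Nup62 or Tbc1d17, so its reads are uncertain. Atf5 (93 and 112 reads in KO, against 162, 90 and 123 in WT) and Tbc1d17 (2179 and 1680 reads in KO, against 2320, 2002 and 1701 in WT) held far fewer reads than Il4i1 and did not pass the test, and Nup62 was not analysed here.

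Of the genes around gp130, Il6st and Il27ra were abundant and the others low. With edgeR, 0 of 6 tested genes of this family passed. An unadjusted p under 0.05 was found for 4 of them, beside 26.4% of all genes. Il6ra and Il27ra passed with DESeq2, and Il6ra also passed with edgeR after the correction for GC content and exon length. At 2000 and 1730 CPM in KO, against 2220, 2480 and 2230 CPM in WT, Il6st lay lower in both KO libraries (-0.31 ± 0.12, SE, but -0.13 with the correction for GC content and exon length). Il6ra, the chain that binds IL-6, stood at 7.74 and 7.05 CPM in KO, against 4.79, 5.32 and 4.60 CPM in WT (0.59 ± 0.16), and Il6 itself at 16.1 and 14.2 CPM in KO, against 12.7, 9.92 and 9.70 CPM in WT (0.49 ± 0.16). The ligand and its own chain thus lay higher in every KO library than in any WT library, and the shared chain lower, without a call for any of them (edgeR, Benjamini-Hochberg adjusted p = 0.11 for Il6, 0.073 for Il6ra and 0.16 for Il6st). Il6ra passed with DESeq2 (adjusted p = 0.016), and with the correction for GC content and exon length, where its log2 fold change was 0.74. Per kilobase of exon Il6ra stood at a mean of 0.683 CPM, far below Il6st at 192. Il27ra, the chain that pairs with gp130 for IL-27, had 245 and 303 CPM in KO, against 371, 336 and 385 CPM in WT (-0.41 ± 0.12), and was -0.58 without KO replicate 2, where it passed (edgeR, Benjamini-Hochberg adjusted p = 0.029). The ligand Il11 overlapped between the groups (-0.05 ± 0.29).

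Of the IL-17 receptor chains, Il17ra and Il17rc were well read, Il17rd was low, Il17rb had 9 to 15 reads in a library, and Il17re had 12 reads in WT library 1 and 0 in the others. Il17ra, shared by most receptors of the family, had 146 and 190 CPM in KO, against 199, 195 and 225 CPM in WT (-0.29 ± 0.13, SE, and -0.50 without KO replicate 2, where it passed with adjusted p = 0.042 by edgeR, Benjamini-Hochberg, but -0.13 with the correction for GC content and exon length). Its partner Il17rc lay slightly higher in KO, at 85.7 and 91.2 CPM, against 78.8, 80.8 and 84.9 CPM in WT (0.12 ± 0.08, and 0.00 with that correction). Il17rd overlapped between the groups (-0.24 ± 0.22). Il17f, under the filter, had at most 8 reads in a library. Il17c, also under the filter and singled out for its values, had 7 and 14 reads in KO and 1, 2 and 0 in WT. Il1f9, under the filter as well, had 6 and 2 reads in KO and 8, 16 and 7 in WT. Il9r, also under it, had 3 and 1 reads in KO and 6, 4 and 3 in WT. For both genes the CPM of KO library 1 nearly equalled that of the lowest WT library. These were 0.11 and 0.113 CPM for Il1f9, and 0.0548 and 0.0577 CPM for Il9r. In the IL-10 family, Il10rb (0.01 ± 0.08) and Il20rb (-0.03 ± 0.21) overlapped, with Il10rb at 56.0 CPM in both KO libraries and 53.3 to 57.9 CPM in WT. Il3ra, the IL-3 binding chain, had 21.3 and 24.8 CPM in KO and 27.3, 23.8 and 25.3 CPM in WT (-0.14 ± 0.12).

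Ligand subunits of the IL-12 family overlapped between the groups, with Il23a at 5.33 and 7.99 CPM in KO and 7.88 to 9.58 CPM in WT (-0.38 ± 0.21, SE) and Il12a at 1.17 and 2.01 CPM in KO and 0.657 to 1.44 CPM in WT (0.57 ± 0.44). Il16, a ligand of CD4, overlapped as well (-0.39 ± 0.27), and 17.4% of its exon bases lie in exons of other genes. Of the 16 tested genes with a mean under 1 CPM, Il7r was the 1 that passed. Another 3 with large fold changes, and the genes after them, were singled out after their values were seen. Il22ra2, a soluble decoy receptor for IL-22, had 0 reads in both KO libraries and 22, 19 and 5 reads in WT, at least 9.34-fold lower against a floor of 3 counts over the KO group (edgeR, Benjamini-Hochberg adjusted p = 0.052, and 0.04 with limma-voom). Il23r had 1 and 0 reads in KO and 14, 4 and 15 reads in WT, a level 20.1-fold lower with an exact 95% counting interval of 3.36 to 818. Il12rb1 had 29 and 2 reads in KO and 62, 104 and 78 reads in WT (-2.26 ± 0.90), and the value was -5.21 without KO replicate 1, where it passed (edgeR, Benjamini-Hochberg adjusted p = 0.017), and -1.34 without KO replicate 2. Of the other 12, Il31ra (0.62 ± 0.40) and Il18r1 (-0.89 ± 0.62) did not overlap between the groups and 10 did. Among these 10, Il10ra, the IL-10 binding chain, had 0 and 47 reads in KO and 73, 21 and 12 in WT, so that it was read in KO library 2 and not in KO library 1.

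Receptors and ligands related to interleukins but named otherwise included the partner chains of several members. Of 17 tested, 1 was higher and 5 were lower in KO (median -0.34 on the log2 scale), beside 3.25% higher and 3.99% lower among all genes. Csf2rb2, the beta chain that serves IL-3 in mice, had 159 and 201 CPM in KO, against 548, 386 and 399 CPM in WT (-1.30 ± 0.19, SE, edgeR, Benjamini-Hochberg adjusted p = 0.019). Its near-identical neighbour Csf2rb, the beta chain shared by IL-3, IL-5 and GM-CSF, had 109 and 143 CPM in KO, against 208, 178 and 208 CPM in WT (-0.65 ± 0.14). Reads can be split between these paralogs, so each level is uncertain. Lif, a gp130 ligand, stood at 150 and 207 CPM in KO, against 348, 298 and 297 CPM in WT (-0.82 ± 0.16), and Osmr, the gp130 partner that binds oncostatin M and IL-31, at 265 and 272 CPM in KO, against 380, 383 and 421 CPM in WT (-0.56 ± 0.09). Crlf3 (-0.45 ± 0.10) was lower and Cntfr (1.69 ± 0.34), at 1.62 CPM in KO and 0.499 CPM in WT, was higher. All 6 lost their call without WT replicate 2 and without WT replicate 3, Csf2rb2 at -1.39 and -1.38, and all but Csf2rb2 without WT replicate 1. Csf2rb (-0.47), Cntfr and Crlf3 lost it without KO replicate 1 too, and Crlf3 also without KO replicate 2. With the correction for GC content and exon length, Csf2rb was at -0.51, Lif at -0.80, Osmr at -0.36 and Crlf3 at -0.43, and these did not pass.

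Downstream of the receptors, 2 of 23 JAK, STAT and SOCS genes were higher in KO and 0 lower, beside 3.25% and 3.99% of all genes. The median over the list was -0.14 on the log2 scale, and 9 of the 23 had an unadjusted p under 0.05, beside 26.4% of all genes. The higher genes were Cish and Socs2, feedback inhibitors that STAT5 is known to induce. Cish stood at 61.8 and 63.3 CPM in KO, against 32.7, 42.9 and 38.4 CPM in WT (0.72 ± 0.12, SE), and Socs2 at 52.7 and 55.3 CPM in KO, against 40.1, 40.2 and 39.9 CPM in WT (0.43 ± 0.08). Jak1, the kinase used by most of these receptors, had 2950 and 3470 CPM in KO, against 4580, 4340 and 4670 CPM in WT (-0.50 ± 0.12), and Stat5b had a log2 fold change of -0.34 ± 0.09, and neither passed. Of 21 genes of MyD88 and IRAK signalling from the IL-1 receptor, 0 passed with edgeR, beside 7.24% of all genes. An unadjusted p under 0.05 was found for 8 of them, beside 26.4% of all genes. The smallest p-values belonged to Pycard (-0.74 ± 0.17) and Nlrp3 (-1.57 ± 0.38), subunits of the inflammasome that matures IL-1 beta, with Nlrp3 at 6.61 and 3.64 CPM in KO, against 21.5, 10.4 and 13.7 CPM in WT (edgeR, Benjamini-Hochberg adjusted p = 0.052 and 0.055). Of 11 genes of IL-17 receptor signalling, 1 was higher and 3 were lower, beside 3.25% and 3.99% of all genes. An unadjusted p under 0.05 was found for 7 of these 11, beside 26.4% of all genes. Cebpb (0.62 ± 0.09) was higher. Traf4 (-0.98 ± 0.16), Traf3 (-0.50 ± 0.10) and Zc3h12a (-0.40 ± 0.09), which encodes an RNase that degrades cytokine transcripts, were lower. The called genes of both lists lost their calls without each WT library (Cish at 0.62 to 0.82, Socs2 at 0.43 to 0.44, Cebpb at 0.59 to 0.64), and Traf3 (-0.40) and Zc3h12a (-0.32) also without KO replicate 2. With the correction for GC content and exon length, Cebpb (0.42) and Traf3 (-0.38) did not pass.

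The 4 calls within the set kept their direction with every library left out, but not their side of the threshold. Removing a WT library left 2 against 2. Of the set, 0 genes then passed without WT replicate 1, 2 or 3 (11, 12 and 9 at an unadjusted p under 0.05), beside 1.74%, 1.12% and 0.0705% of all genes. Removing a KO library left 1 against 3, so calls from those fits cover no spread between KO libraries and are not counted here. Without KO replicate 2, Il33, Il21r, Il27ra, Il17ra and Il13ra2 were at -0.75, -1.71, -0.58, -0.50 and -0.57 on the log2 scale. Without KO replicate 1 the same genes were at 0.16, -0.52, -0.27, -0.12 and 0.01.

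**Figure D4:**
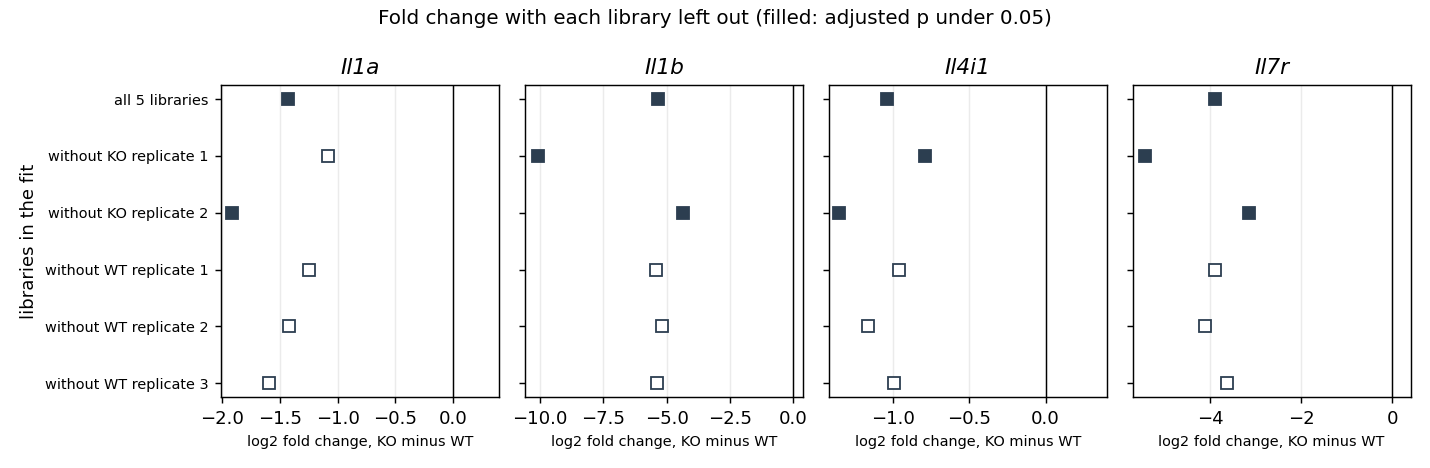
Log2 fold change, KO minus WT (horizontal axes), of the 4 genes lower in KO, with all 5 libraries and with each library left out (vertical axis), where filled squares have an adjusted p under 0.05. All values lie left of 0, and the squares without a WT library are open for each gene.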

How the data were processed

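The authors deposited 1 table of raw counts, with Ensembl genes as lines and libraries as columns, per the file headers. The build mm10 and 4 programs (HTSeq 0.6.1, Bowtie2 2.1.0, TopHat2 2.0.14 and bcl2fastq 2.17.1.14) are named, without roles, in the submitters' processing notes. No annotation release, program setting or rule for multiply mapped reads is given there. Per the labels' protocols, 4 ng of RNA was amplified for 10 cycles with SMART-Seq v4, and 600 pg of the cDNA was tagmented, amplified for 12 cycles and sequenced from 1 end over 50 bases. Such reads carry no molecular identifiers, so intervals and floors cover counting error only. Of the gene IDs, 27648 matched a symbol in GENCODE M21 (mm10). A further 14 annotated genes with such symbols were not analysed here.

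edgeR 4.0.16 in R 4.3.3 tested KO against WT over all genes: filterByExpr (minimum count 10), TMM, robust quasi-likelihood F test, Benjamini-Hochberg adjustment, threshold 0.05. An SE is the size of the log2 fold change over the root of its F value. CPM uses TMM-scaled library sizes (factors 0.9742 to 1.028), and level per length is CPM over the union of annotated exons in kilobases. Alternatives were RLE, library totals, no filter, 1 CPM in 2 libraries, DESeq2 1.42.0, limma-voom (limma 3.58.1), no robust estimation, an adjusted p of 0.1, the replicate number as a block, a loess offset (span 0.5) for GC content and exon length, and leaving out each library. The fits were tested on simulated data. Genes named are those called, those with a mean of at least 1 CPM, and from pathway lists those called and up to 2 others with the smallest p; others are said to be singled out. The members and lists were chosen with earlier results of these data known. Promoter windows and motifs were chosen after the calls were seen, and 54 members had a RefSeq promoter entry.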

Additional observations from a re-analysis of the deposited data

How the results depend on the processing

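Results are given as the number of genes past the threshold, in the order all genes (1150 with edgeR's quasi-likelihood test), the set (4) and the pathway and marker lists (27). With the replicate number as a block the counts were 0, 0 and 0, and 2808, 11 and 42 at an unadjusted p under 0.05. Nothing in the labels says that the numbers pair the libraries. Deviations of same-numbered libraries correlated at 0.048 and -0.052. With 2 KO libraries the KO deviations mirror each other, so these correlations cannot tell whether the numbers pair libraries. The offset for exon length and GC gave 738 over all genes and 4 in the set, with Il6ra (higher) in and Il4i1 out, and the offset with the block gave 3, 0 and 0. DESeq2 called 2661 genes (18.5% of those with an adjusted p) and 11 of 41 in the set, which were the 4 with Il12rb1, Il13ra1, Il15ra, Il21r, Il27ra, Il2rb and, as the 1 higher gene, Il6ra. Without a filter on low counts 7 genes of the set passed, and a threshold of 0.1 gave 2546 over all genes and 11 in the set. With a library left out the counts ranged from 11 to 1736, from 0 to 9 and from 0 to 35. The 0 calls in the set without a WT library stood beside 9 to 12 genes at an unadjusted p under 0.05. Other settings kept the counts within 1.5 times, but not always the same genes of the set. Il1a was not called with library totals alone. With the filter at 1 CPM in 2 libraries, Il7r was not called and Il2rb was. Il22ra2 was called in addition with limma-voom and with edgeR without robust estimation. No called fold change of the set reversed in any setting. The same 10 genes were highest by CPM and by CPM per kilobase. The 19 genes under the filter were left out of the edgeR test, and depth limits what can be seen in them. Without the filter 67 genes of the set were tested, and the 7 that passed included none of the 19.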
